A study of Mus musculus with 6 samples.

Results

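The 10 histone chaperone genes described here were chosen by symbol out of the 24062 gene symbols counted in mouse embryonic fibroblasts, and all 10 passed the filter on low counts that left 13990 genes for testing. The set was put together because Asf1b had been seen to be lower in cells given p27. The Asf1b values are therefore a description and support nothing. The other members were listed for their function, but also with earlier results of these data known. Messenger RNA was sequenced in 3 p27OE libraries and 3 EV control libraries, all at day 10. The p27OE cells had received p27 by lentivirus (the product of Cdkn1b, which inhibits cyclin-dependent kinases). The EV control cells are named as the control in their titles, with no further description of EV in the labels. Those titles also carry a dataset mark that no p27OE title carries, so any difference it stands for cannot be told apart from p27. All cells were embryonic fibroblasts of the C57BL/6 strain, a mixed primary culture of connective tissue cells. The labels give no vector promoter and no age of the embryos, and separate embryos, cultures or transductions are not named for the replicates. P-values therefore measure only the spread between these samples, which may be technical. The sample titles and the treatment protocol call the p27OE cells senescent, while the series text calls the cells non-senescent.

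Histones are carried by chaperones between their synthesis and their place in a nucleosome. In S phase, ASF1 passes new H3-H4 to CAF-1, which loads it onto freshly copied DNA, the replication-coupled route. Throughout the cell cycle, the H3 variant H3.3 is loaded by the HIRA complex at genes and by DAXX with ATRX at telomeres and silent repeats, the replication-independent route. The replication-coupled members were Asf1b, which encodes the ASF1 paralog linked to proliferation in human cells, and Chaf1a and Chaf1b, which encode the large and middle subunits of CAF-1. The replication-independent members were Hira and Cabin1 of the HIRA complex, Daxx and Atrx. Asf1a, whose product feeds both routes, Hjurp, the chaperone of the centromeric H3 variant CENP-A, and Nap1l1, a chaperone of H2A-H2B, stood outside both classes.

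Promoters are shown for the replication-coupled members and, beside them, for Asf1a, the paralog of Asf1b, and Hira of the other route, because several of them lay lower in p27OE together. RefSeq promoter windows (GRCm38.p6, 250 bases before to 50 after the start) were found for all 10 members, 12 windows in all since Daxx had 3. Each line gives the 250 bases before the start on the + strand, 5′ to 3′, from chr8:83955444-83955693, chr17:56040166-56040415, chr16:93883651-93883900, chr10:53596711-53596960 and chr16:18876500-18876749. Capitals mark matches, on either strand, to the E2F-type letters TTCCCGC or TTGGCGC, the CHR-type letters TTTGAA (the cell cycle genes homology region) and the CCAAT box (CCAAT, read as ATTGG on the other strand).
Asf1b: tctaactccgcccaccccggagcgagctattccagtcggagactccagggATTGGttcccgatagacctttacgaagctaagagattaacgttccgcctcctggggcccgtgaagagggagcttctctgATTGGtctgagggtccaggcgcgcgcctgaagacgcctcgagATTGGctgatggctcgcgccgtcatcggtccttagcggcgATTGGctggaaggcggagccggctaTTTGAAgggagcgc
Chaf1a: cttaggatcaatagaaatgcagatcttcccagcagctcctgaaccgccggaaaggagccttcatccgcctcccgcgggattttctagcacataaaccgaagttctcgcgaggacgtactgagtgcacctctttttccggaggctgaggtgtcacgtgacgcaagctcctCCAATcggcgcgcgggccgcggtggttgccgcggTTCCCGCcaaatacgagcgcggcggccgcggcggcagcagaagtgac
Chaf1b: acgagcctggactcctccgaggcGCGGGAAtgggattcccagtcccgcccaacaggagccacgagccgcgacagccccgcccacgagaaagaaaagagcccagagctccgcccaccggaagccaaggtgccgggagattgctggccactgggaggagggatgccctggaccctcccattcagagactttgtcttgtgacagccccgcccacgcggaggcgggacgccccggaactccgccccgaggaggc
Asf1a: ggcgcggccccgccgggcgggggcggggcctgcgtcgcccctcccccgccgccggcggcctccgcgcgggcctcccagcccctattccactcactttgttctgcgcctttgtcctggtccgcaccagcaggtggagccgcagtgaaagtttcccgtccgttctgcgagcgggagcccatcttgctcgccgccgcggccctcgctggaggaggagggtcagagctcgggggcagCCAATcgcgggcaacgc
Hira: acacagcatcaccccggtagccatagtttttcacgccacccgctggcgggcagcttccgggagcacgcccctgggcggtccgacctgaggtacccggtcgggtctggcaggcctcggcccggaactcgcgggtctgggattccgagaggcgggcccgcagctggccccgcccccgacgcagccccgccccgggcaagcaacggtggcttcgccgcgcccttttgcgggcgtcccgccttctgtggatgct
The Asf1b stretch held 4 CCAAT boxes, all on the other strand, and 1 CHR-type match at -14 from the start. In Chaf1a, 1 CCAAT box lay at -81 and 1 E2F-type match at -47. Chaf1b had E2F-type matches at -227 and, past the printed stretch, at 27 after the start. Asf1a held 1 CCAAT box at -17, and the Hira window held none of these letters. The gene coordinates given below (GENCODE) begin inside the printed stretch for Asf1b and Asf1a, and past the whole window for Hira. Distances and absences therefore hold for the RefSeq start only.

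Over all 32851 promoter windows of the same length, 6.81% held an E2F-type match, 17.9% a CHR-type match and 37.4% a CCAAT box, and 6.95% held both a CHR-type match and a CCAAT box. Among the members no type of these letters by itself followed the classes. A match of E2F or CHR type lay in every replication-coupled member, but in Atrx only among the replication-independent members. This difference was not tested. E2F-type letters lay in the windows of Chaf1a, Chaf1b, Nap1l1 and Atrx, and CHR-type letters in those of Asf1b and Hjurp. CCAAT boxes lay in Asf1b and Atrx (4 each), Cabin1 (2), and Chaf1a, Asf1a, Hjurp, Nap1l1 and the first Daxx window (1 each). In Atrx the E2F-type match, at 1 after the start, overlapped a CCAAT box. A match is a run of letters and not a site of binding.

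**Figure D1:**
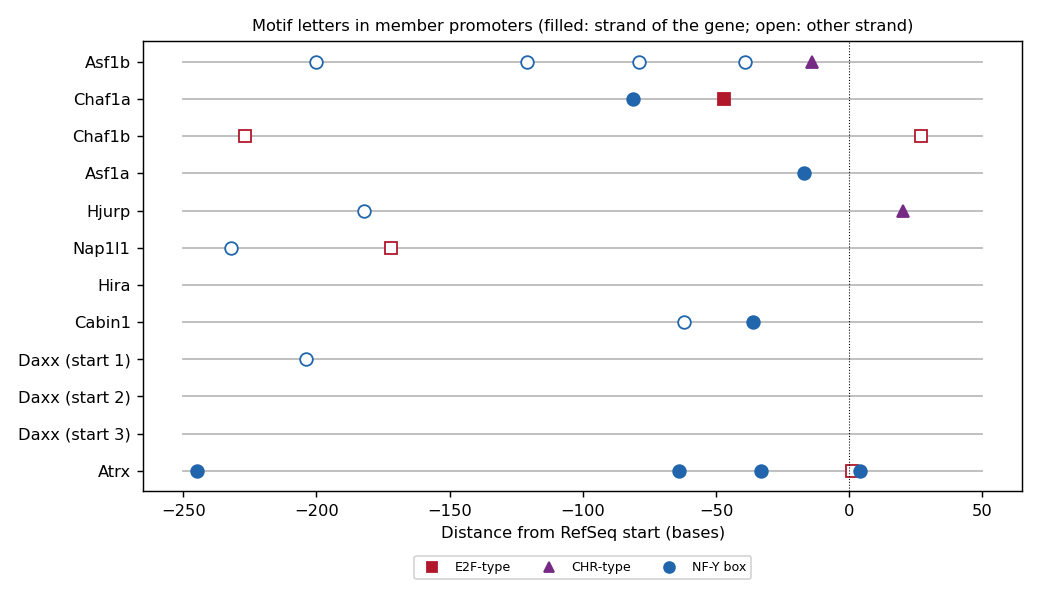
Matches to the E2F-type, CHR-type and CCAAT (NF-Y box) letters in the RefSeq promoter windows of the 10 members, by distance in bases from the annotated start (filled symbols, strand of the gene; open symbols, other strand). Asf1b and Atrx have 4 CCAAT boxes each, Asf1b also has 1 CHR-type match, and Hira and Daxx starts 2 and 3 have none of these letters.

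Library totals ran from 43621464 to 48014367 counts in p27OE and from 39183624 to 61219345 counts in EV control. Cdkn1b was at 167, 232 and 337 CPM (the count set relative to library size, with TMM factors) in p27OE libraries 1, 2 and 3, against 43.9, 31.5 and 32.3 CPM in EV control libraries 1, 2 and 3, and it rose by 2.77 ± 0.29 on the log2 scale (SE; adjusted p = 0.028, edgeR). Its call was lost without any one library other than EV control 1 (edgeR adjusted p from 0.0563 to 0.189). The fibroblast markers summed to 45521 to 47801 CPM in p27OE and 41155 to 59331 CPM in EV control, 10 of 10 were tested, and the highest, Col1a1, averaged 15695 CPM. The 10 macrophage markers summed to 17.9 to 34.3 CPM in p27OE and 14.9 to 82.9 CPM in EV control, with the highest sum in EV control 1. Markers of other cells were at 4.30 to 7.73 CPM in p27OE and 3.32 to 3.93 CPM in EV control for endothelium (3 of 6 tested), 23.0 to 34.5 CPM and 16.5 to 40.4 CPM for epithelium (4 of 6), and 94.1 to 100.5 CPM and 83.1 to 94.2 CPM for neural cells (4 of 6). Those of skeletal muscle (1 of 6) were at 0.32 to 0.87 CPM in p27OE and 0.18 to 0.33 CPM in EV control, with Myf5 at 0 in every library. The Y-linked genes Uty, Kdm5d, Eif2s3y and Ddx3y together had 1.95, 57.1 and 137 CPM in p27OE libraries 1, 2 and 3, against 0.125, 126 and 124 CPM in EV control libraries 1, 2 and 3, so the libraries numbered 1 stood apart in both groups. The part of these differences in the results below was not tested. The members that passed without both libraries numbered 1 are named below, beside the 8.90% of all genes called lower there. Of the other genes named by rule, 15 that did not pass with all libraries passed in that fit, Nasp and Cenpa among them, and 12 kept their result. Most were picked by p or profile in these same libraries, so this count supports nothing. In bulk RNA, fewer cells in S phase and less RNA per cell cannot be told apart.

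Asf1b, Chaf1a and Chaf1b had lower values in every p27OE library than in any EV control library, and Asf1b had the largest difference of the 10 members. Asf1b (chromosome 8, 83955507 to 83970197, GRCm38) was at 19.3, 18.3 and 13.2 CPM in p27OE, against 29.0, 42.0 and 41.8 CPM in EV control. The groups did not overlap, and EV control 1 was the lowest control and p27OE 3 the lowest library. Its log2 fold change was −1.15 ± 0.20 (SE), which is 45.1% of the control level, and 0.879% of all genes tested had a lower one. That value is what prompted the choice of the set.

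Chaf1a (chromosome 17, 56040439 to 56072289) was at 44.0, 42.9 and 38.3 CPM in p27OE, against 53.5, 68.3 and 65.6 CPM in EV control. Every p27OE library lay below every EV control library. The log2 fold change of −0.58 ± 0.11 (SE) did not pass (adjusted p = 0.0521, edgeR). Chaf1b (chromosome 16, 93883901 to 93906115) was at 16.1, 15.1 and 10.4 CPM in p27OE, against 19.1, 24.3 and 24.5 CPM in EV control. These groups did not overlap either, and p27OE 3 was the lowest. Its log2 fold change was −0.71 ± 0.19 (SE; adjusted p = 0.0838, edgeR). The ratio of Chaf1a to Chaf1b per exon length was 1.44, 1.498 and 1.95 in p27OE, against 1.48, 1.49 and 1.41 in EV control, so the subunit transcripts kept a like ratio in 5 libraries and p27OE 3 was higher. Chaf1a shares exonic bases with Ubxn6 on the opposite strand, and the kit named in the labels does not keep strand, so some reads of both genes cannot be told apart. Ubxn6 was at 47.7 ± 2.61 CPM in p27OE and 41.9 ± 1.95 CPM in EV control (SD, n = 3 each), higher where Chaf1a was lower.

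**Figure D2:**
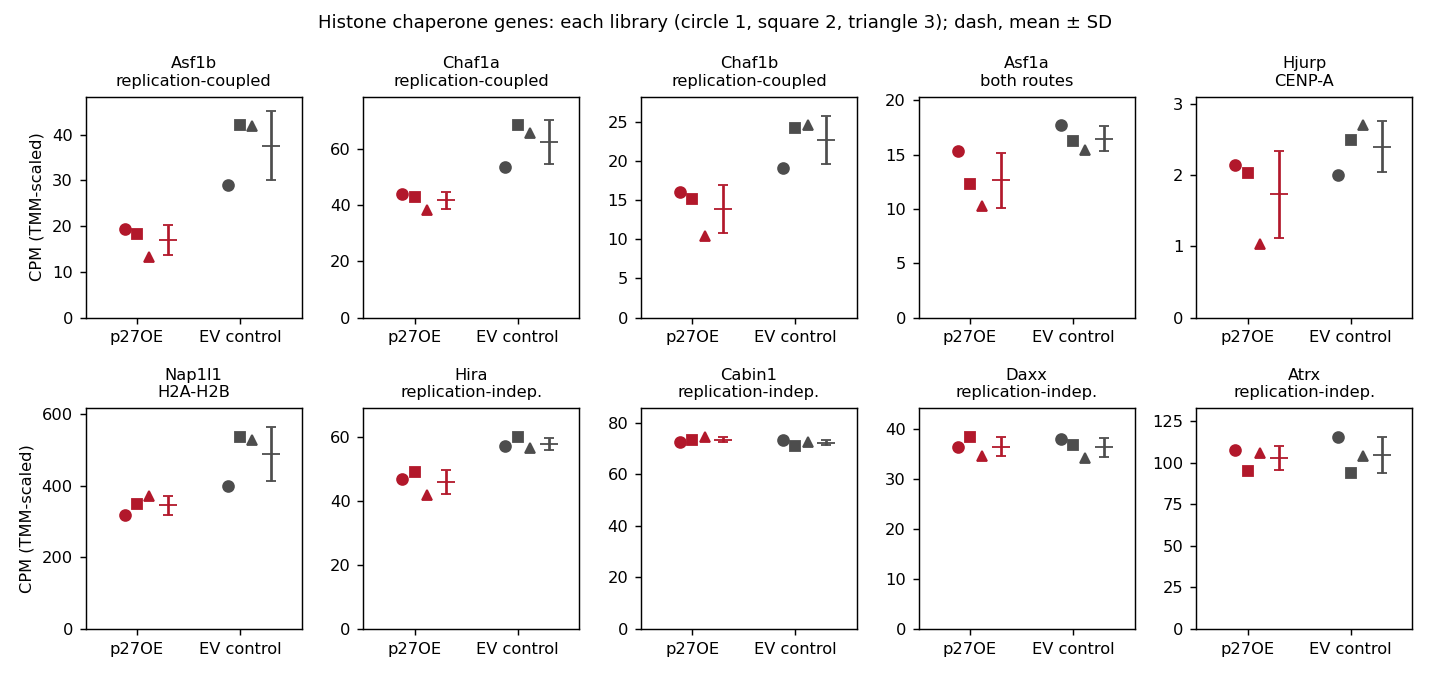
TMM-scaled CPM of each member in each library (circle, square and triangle for libraries 1, 2 and 3 of each group), p27OE left and EV control right, with mean ± SD (n = 3 each) beside the points and every axis starting at 0. Asf1b, Chaf1a, Chaf1b, Asf1a, Nap1l1 and Hira have p27OE libraries all below EV control libraries, and Hjurp, Cabin1, Daxx and Atrx overlap.

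Asf1a, the ASF1 paralog that serves both routes (chromosome 10, 53596757 to 53609225), was at 15.4, 12.3 and 10.3 CPM in p27OE, against 17.7, 16.3 and 15.5 CPM in EV control. The groups came within rounding of each other at p27OE 1 and EV control 3 without overlapping. Asf1a had a log2 fold change of −0.38 ± 0.16 (SE; adjusted p = 0.191, edgeR). Asf1a shares exonic bases with Mcm9 on the opposite strand, and Mcm9 was itself at 6.16 ± 0.53 CPM in p27OE and 7.89 ± 0.28 CPM in EV control (SD, n = 3 each). Set per exon length, Asf1b made up 66.1, 69.9 and 66.7% of the ASF1 transcripts in p27OE, against 71.8, 80.03 and 80.8% in EV control. So Asf1b was the more abundant paralog in every library, and its share was lower in every p27OE library than in any control. In the sense direction, no stretch of 50 bases was common to the transcripts of Asf1a or Asf1b and any other annotated gene, the paralog included.

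Hjurp, the CENP-A chaperone (chromosome 1, 88262471 to 88277633), was scarce, at 2.14, 2.03 and 1.03 CPM in p27OE, against 2.0, 2.50 and 2.70 CPM in EV control. It rests on 43 to 151 counts per library, and the groups overlapped, with p27OE 3 standing low. Its log2 fold change was −0.47 ± 0.32 (SE; adjusted p = 0.413, edgeR), and it was −0.20 without p27OE 3 and −0.66 without p27OE 1. Nap1l1, the H2A-H2B chaperone (chromosome 10, 111473220 to 111498150), was at 318, 349 and 371 CPM in p27OE, against 400.5, 537 and 527 CPM in EV control. The groups did not overlap, and here p27OE 3 was the highest p27OE library, unlike in Asf1b, Chaf1a and Chaf1b. The log2 fold change was −0.50 ± 0.13 (SE; adjusted p = 0.0843, edgeR). Of the 50-base stretches of Nap1l1 transcripts 20.9% occur in transcripts of other genes, so its count is uncertain.

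Among the replication-independent members, Hira had lower values in every p27OE library than in any EV control library, while the groups overlapped for Cabin1, Daxx and Atrx. Hira, the histone-binding scaffold of its complex (chromosome 16, 18877037 to 18970309), was at 46.8, 49.1 and 41.9 CPM in p27OE, against 57.0, 59.97 and 56.5 CPM in EV control. The groups did not overlap. For Hira the log2 fold change was −0.33 ± 0.08 (SE; adjusted p = 0.0708, edgeR), a small value with a small error. Gm28539, a gene on the same strand, holds 42.0% of the 50-base stretches of Hira transcripts and was not analysed here, so reads of the pair cannot be told apart.

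Cabin1, whose product is a subunit of the HIRA complex (chromosome 10, 75646112 to 75764341), was at 72.4, 73.2 and 74.5 CPM in p27OE, against 73.3, 71.1 and 72.4 CPM in EV control. All libraries fell within a narrow band and the groups overlapped. The log2 fold change was 0.02 ± 0.06 (SE; adjusted p = 0.835, edgeR). Daxx, the H3.3 chaperone of silent repeats (chromosome 17, 33909414 to 33915590), was at 36.4, 38.5 and 34.7 CPM in p27OE, against 38.1, 36.8 and 34.4 CPM in EV control, with the groups interleaved. Atrx, the chromatin remodeller that works with DAXX (chromosome X, 105797620 to 105929400), was at 108, 94.7 and 106 CPM in p27OE, against 116, 93.8 and 104 CPM in EV control, again interleaved. Log2 fold changes were 0.01 ± 0.08 for Daxx and −0.02 ± 0.10 for Atrx (SE; adjusted p = 0.973 and 0.904, edgeR), and both signs turned under other settings. These values do not show that the levels were equal.

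In all, 1 of the 10 members passed (edgeR, adjusted p under 0.05), Asf1b, lower in p27OE, where 2.61% of all genes passed, 0.843% as lower and 1.77% as higher. Since Asf1b prompted the set, nothing is read from that count. The groups did not overlap for 6 of 10 members, beside 33.3% of all genes tested. Every p27OE library lay below every EV control library for these 6, beside 16.5% of all genes tested, and above for 0, beside 16.8%. The log2 fold change was negative for 8 members, beside 48.2% of all genes, and positive for 2. Its median was −0.42, where that of all genes was 0.01. The median was −0.71 over Asf1b, Chaf1a and Chaf1b, among them the gene that prompted the set, and −0.01 over Hira, Cabin1, Daxx and Atrx, whose values ran from −0.33 to 0.02. The difference between the classes was not tested. The call of Asf1b was lost with total-count scaling, where 0.536% of all genes were called lower. It was also lost without any one library other than EV control 1, in fits where 0% of all genes were called lower.

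In some other fits more members passed, always as lower. With RLE scaling, upper-quartile scaling, no filter and limma-voom, Asf1b alone of the members passed, beside 0.751, 0.801, 0.676 and 0.958% of all genes called lower in that order. With the stricter filter Asf1b and Chaf1a passed, beside 1.45% of all genes, and without EV control 1 Asf1b, Chaf1a and Nap1l1 passed, beside 6.75%. With DESeq2, Asf1b, Chaf1a, Chaf1b, Nap1l1 and Hira passed, 5 of 10, beside 8.41% of all genes called lower. Without both libraries numbered 1, Asf1b, Chaf1a, Chaf1b and Nap1l1 passed, beside 8.90% of all genes, and the log2 fold change of Asf1b was −1.42, of Chaf1a −0.74 and of Chaf1b −0.95. When the Y-linked level entered the fit as a covariate, these 4, Asf1a and Hira passed, beside 16.0% of all genes called lower. Hjurp, Cabin1, Daxx and Atrx passed in none of the 16 alternative settings run.

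**Figure D3:**
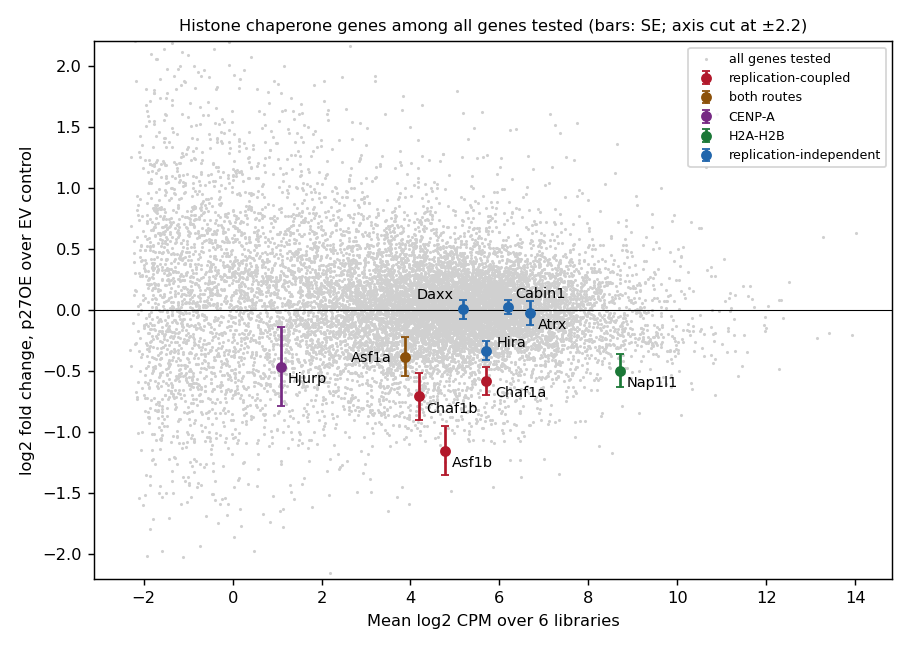
Fitted log2 fold change of p27OE over EV control against mean log2 CPM for all 13990 genes tested (grey) and the 10 members (coloured by class, bars for SE). Asf1b lies lowest of the members at −1.15, while Cabin1, Daxx and Atrx lie near the zero line.

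The size of the difference also varied between the p27OE libraries. Set against the EV control mean on the log2 CPM scale, Chaf1b was at −0.48, −0.57 and −1.11 in p27OE libraries 1, 2 and 3, against −0.24, 0.11 and 0.13 in EV control libraries 1, 2 and 3. Chaf1a was at −0.50, −0.53 and −0.70 in p27OE, against −0.22, 0.14 and 0.08 in EV control. Hira was at −0.30, −0.23 and −0.46 in p27OE, against −0.02, 0.05 and −0.03 in EV control. Library p27OE 3 was thus the lowest for each of these genes, and the p27OE libraries spread about as widely for Hira as for Chaf1a and more widely for Chaf1b. Atrx was at 0.05, −0.14 and 0.02 in p27OE, against 0.15, −0.15 and −0.00 in EV control, a spread as wide as that of Chaf1a but shared by both groups. Between the libraries numbered 1, which both had a low Y-linked level, Asf1b differed by −0.59, Chaf1a by −0.28, Chaf1b by −0.25 and Hjurp by 0.10 on the log2 scale. Between p27OE 3 and the mean of EV control 2 and 3, which all had a high level, the same genes differed by −1.66, −0.81, −1.23 and −1.29. For Asf1b, Chaf1a and Chaf1b both signs follow from groups that do not overlap, so only the sizes are read. Cdkn1b differed by 1.92 in the first comparison and by 3.40 in the second, so its difference and the Y-linked level changed together. Their parts in these sizes were not tested.

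The summed CPM of 14 proliferation genes was lower in every p27OE library than in any EV control library, as were Asf1b, Chaf1a and Chaf1b. It was 1163, 1071 and 737 in p27OE libraries 1, 2 and 3, against 1480, 1951 and 1894 in EV control libraries 1, 2 and 3. The 6 libraries stood in the same order as for Asf1b. The log2 fold change was negative for 14 of 14, its median −0.92, and 0 passed (edgeR and limma-voom), with 13 at an unadjusted p under 0.05 and 13 called lower by DESeq2. Over all genes tested, 48.2% had a negative log2 fold change, 26.0% had an unadjusted p under 0.05 in edgeR and 8.41% were called lower by DESeq2. Rrm2, a ribonucleotide reductase gene named after its values were seen, had overlapping groups (adjusted p = 0.312, edgeR). Mki67, which marks cycling cells, averaged 105 ± 34.4 CPM in p27OE and 198 ± 6.97 CPM in EV control (SD, n = 3 each), with a log2 fold change of −0.91 ± 0.24 (SE; adjusted p = 0.0769, edgeR). Pcna, the clamp on replicating DNA that CAF-1 binds, is counted with the supply partners below. It was at 108 ± 11.7 CPM in p27OE and 148 ± 20.1 CPM in EV control (SD, n = 3 each), with a log2 fold change of −0.45 ± 0.13 (SE; adjusted p = 0.0948, edgeR). Their part in the lower chaperone levels was not tested.

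**Figure D4:**
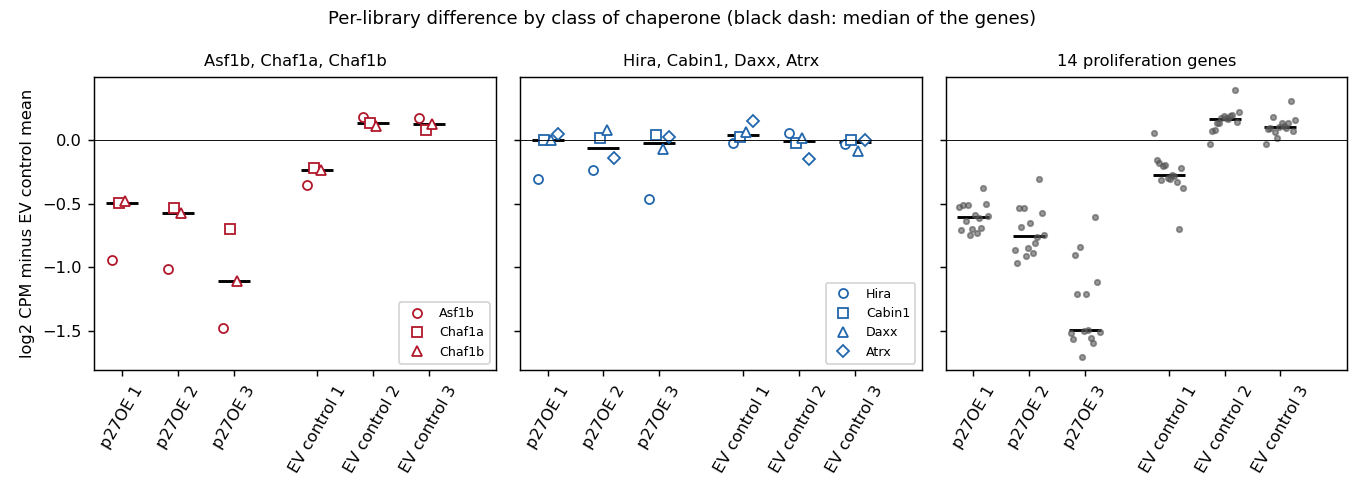
Log2 CPM minus the EV control mean in each library for Asf1b, Chaf1a and Chaf1b (left), Hira, Cabin1, Daxx and Atrx (middle) and 14 proliferation genes (right), with the median of the genes as a black dash. The medians of the left panel run from −1.11 to −0.50 in p27OE and from −0.24 to 0.14 in EV control, and those of the middle panel stay within −0.06 to 0.04, although Hira runs from −0.46 to −0.23 in p27OE.

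Levels of different members can be compared only per length, here as CPM per kilobase of all annotated exons, which is approximate since the isoforms used were not measured. In p27OE the order was Nap1l1 (69.3 ± 5.34), Daxx (11.6 ± 0.62), Hira (7.39 ± 0.59), Asf1b (7.24 ± 1.38), Cabin1 (6.04 ± 0.09), Atrx (4.72 ± 0.32), Chaf1a (4.71 ± 0.34), Asf1a (3.47 ± 0.70), Chaf1b (2.96 ± 0.65) and Hjurp (0.21 ± 0.07), each a mean level with its SD over 3 libraries. Hira and Asf1b, Asf1b and Cabin1, Atrx and Chaf1a, and Asf1a and Chaf1b lay within their spread of each other. In EV control Nap1l1 (97.7 ± 15.2) was followed by Asf1b (16.1 ± 3.19), Daxx (11.6 ± 0.60), Hira (9.30 ± 0.30), Chaf1a (7.05 ± 0.89), Cabin1 (5.94 ± 0.09), Chaf1b (4.84 ± 0.66), Atrx (4.80 ± 0.50), Asf1a (4.53 ± 0.31) and Hjurp (0.29 ± 0.04). There Chaf1b, Atrx and Asf1a lay within their spread of each other. Asf1b was below Daxx in each p27OE library and above Daxx in each EV control library.

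The profile of each gene over the 6 libraries, centred on its own mean log2 CPM, was compared with that of each of 10741 other genes whose mean log2 CPM was 2 or more. Nearest to Asf1b by root mean square difference were Trip13, which encodes a checkpoint remodelling ATPase, Mybl2, a cell cycle transcription factor, Shcbp1, Fancb of the Fanconi anaemia pathway, and the mitotic kinase gene Nek2, at 0.07 to 0.08 log2 units, where the median over all genes was 0.65. Their log2 fold changes ran from −1.15 to −0.98, and none of these 5 passed (edgeR adjusted p from 0.0527 to 0.0637). Fold changes near that of the gene compared follow from the way such genes were picked, here and for Hira, and support nothing. Nearest to Hira were Atg4d, Senp1, Supt16, Zcchc8 and Rpl3, at 0.03 to 0.04, where the median was 0.25. Supt16 encodes a subunit of the histone chaperone FACT. Its log2 fold change was −0.35 ± 0.07 (SE; adjusted p = 0.0524, edgeR). Genes in general thus lay nearer to Hira than to Asf1b, whose own levels differed more between libraries.

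The partner genes of the members, listed by function, mostly had negative log2 fold changes. Of 40 partners in 5 lists 36 lay below 0, beside 48.2% of all genes, with a median log2 fold change of −0.29. As lower 3 passed, beside 0.843% of all genes, and as higher 0, beside 1.77% (edgeR, adjusted p under 0.05). Wholly below the controls lay 22, beside 16.5% of all genes. DESeq2 called 17 of the 40 lower, beside 8.41% of all genes, and 1 higher, beside 8.19%. The shares over all genes also stand beside the counts of each list that follow. They are 48.2% below 0, 26.0% at an unadjusted p under 0.05 and 8.41% called lower by DESeq2. In the list of replication-coupled supply the values of 13 of 13 genes were negative, their median −0.30, and 0 passed (edgeR and limma-voom), with 7 at an unadjusted p under 0.05 and 5 called lower by DESeq2. Nasp, which holds the pool of soluble H3-H4, was at 54.2 ± 9.65 CPM in p27OE and 93.2 ± 12.98 CPM in EV control (SD, n = 3 each), with a log2 fold change of −0.78 ± 0.16 (SE; adjusted p = 0.0585, edgeR). Mcm2, a helicase subunit that also binds H3-H4, and Mms22l, which acts at forks with the histone reader TONSL, had log2 fold changes of −0.53 ± 0.12 and −0.69 ± 0.17 (SE; adjusted p = 0.0643 and 0.0712, edgeR).

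Genes for CENP-A loading lay below 0 in 3 of 3 cases with a median of −0.85, and 0 passed (edgeR and limma-voom), with 3 at an unadjusted p under 0.05 and 2 called lower by DESeq2. Cenpa itself was at 35.6 ± 9.07 CPM in p27OE and 66.9 ± 9.23 CPM in EV control (SD, n = 3 each). Its log2 fold change was −0.91 ± 0.21, beside −0.85 ± 0.28 for Oip5 and −0.53 ± 0.18 for Mis18a, both needed to prepare centromeres for new CENP-A (SE; adjusted p = 0.0668, 0.119 and 0.133, edgeR). For these 3 genes every p27OE library lay below every EV control library, beside 16.5% of all genes. The groups overlapped for their chaperone Hjurp, which had a negative log2 fold change too but only 43 to 151 counts per library.

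Called partners were all in the list of H2A-H2B and other chaperones, whose median was −0.28 and in which 13 of 15 genes were negative. In that list 9 genes were at an unadjusted p under 0.05, beside 26.0% of all genes. DESeq2 called 7 of its genes lower, beside 8.41% of all genes, and 1 higher, beside 8.19%. Set, a chaperone that also inhibits histone acetylation, was at 236, 239 and 206 CPM in p27OE, against 330, 371 and 372 CPM in EV control, and fell by 0.65 ± 0.10 on the log2 scale (SE; adjusted p = 0.0348, edgeR). Anp32e, which removes the variant H2A.Z, was at 93.7, 86.2 and 69.5 CPM in p27OE, against 127, 132 and 134 CPM in EV control, and fell by 0.66 ± 0.12 (SE; adjusted p = 0.0485, edgeR). Npm1, the nucleolar chaperone nucleophosmin, was at 900.1, 910.1 and 820.0 CPM in p27OE, against 1145, 1285 and 1281 CPM in EV control, and fell by 0.50 ± 0.09 (SE; adjusted p = 0.0495, edgeR). Every p27OE library lay below every EV control library for these genes, beside 16.5% of all genes. Npm1 has many processed copies, which makes its count uncertain, and all 3 calls were lost without any one library other than EV control 1. In those fits 0% of all genes were called lower. The calls of Anp32e and Npm1 were also lost with total-count scaling. Nap1l3, a relative of Nap1l1 named after its values were seen, had the highest log2 fold change of the partners, 1.36 ± 0.45 (SE; adjusted p = 0.121, edgeR), at 1.93 ± 0.77 CPM in p27OE and 0.76 ± 0.35 CPM in EV control (SD, n = 3 each).

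In the list of HIRA and H3.3 partners 3 of 4 lay below 0 with a median of −0.02, and 0 passed (edgeR and limma-voom), with 1 at an unadjusted p under 0.05, near the 26.0% of all genes, and 1 called lower by DESeq2. The H3.3 gene H3f3b was at 302 ± 54.4 CPM in p27OE and 420 ± 34.8 CPM in EV control (SD, n = 3 each), with a log2 fold change of −0.47 ± 0.15 (SE; adjusted p = 0.108, edgeR). H3f3a, which encodes the same protein, was at −0.04 ± 0.14, and Ubn2 of the HIRA complex at 0.03 ± 0.13 (SE; adjusted p = 0.88 and 0.91, edgeR). Both H3.3 genes have processed copies, which makes their counts uncertain. Of 5 DAXX and ATRX partners 4 lay below 0 with a median of −0.22, and 0 passed (edgeR and limma-voom), with 2 at an unadjusted p under 0.05 and 2 called lower by DESeq2. Trim28, a corepressor, and Setdb1, the methyltransferase it recruits, were at −0.32 ± 0.09 and −0.22 ± 0.06 (SE; adjusted p = 0.0822 and 0.0896, edgeR). Sp100, of nuclear bodies, was near the floor at 0.33 ± 0.27 CPM in p27OE and 0.53 ± 0.36 CPM in EV control (SD, n = 3 each).

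**Figure D5:**
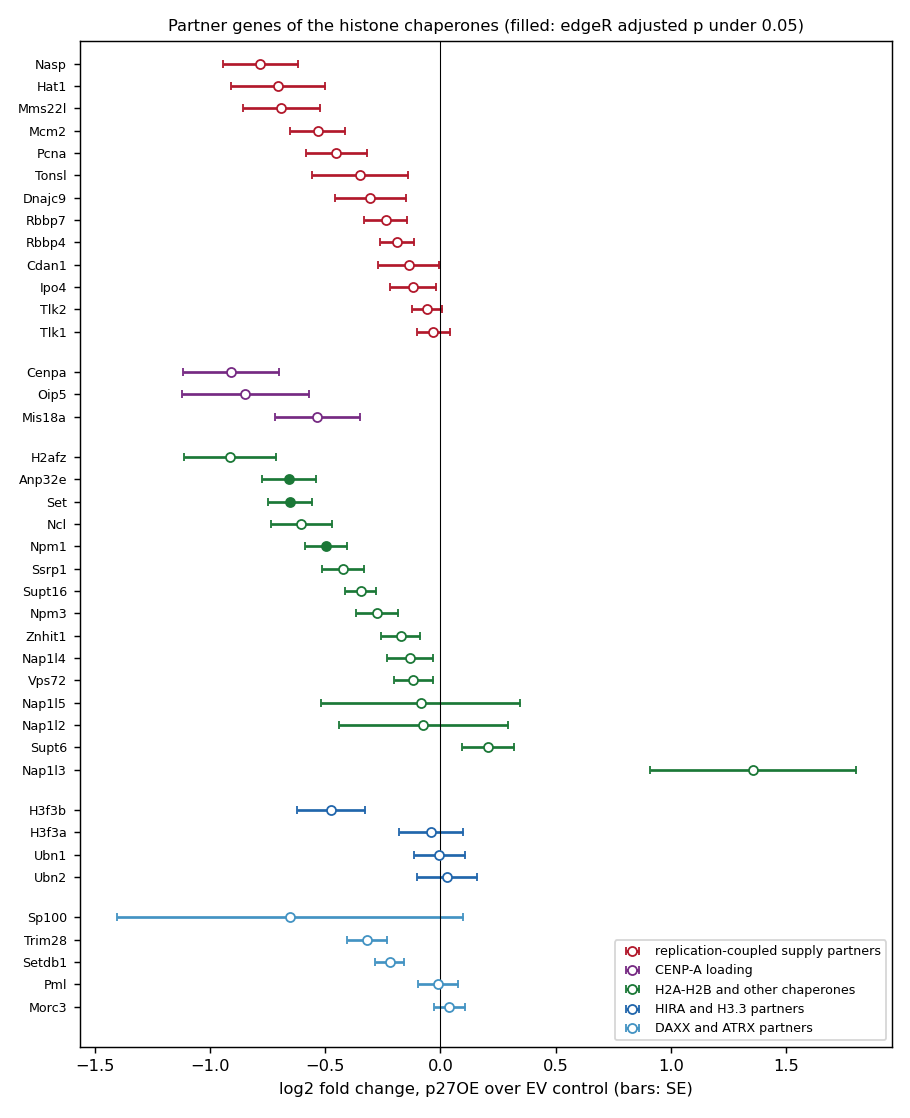
Fitted log2 fold change of p27OE over EV control with SE for 40 partner genes, grouped by list from top to bottom and sorted within each list, with filled points for an edgeR adjusted p under 0.05. Set, Anp32e and Npm1 are the filled points, and the HIRA and H3.3 partners other than H3f3b sit near the zero line.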

How the data were processed

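The authors deposited 1 table of unnormalised read counts, whole numbers with 1 row for each gene symbol. The submitters' processing notes name featureCounts 1.4.6, Subread, TopHat2 2.0.14 and Bowtie2 2.2.6, with mm10 as the build. Annotation and strand setting are not given in the sources used here. TruSeq RNA v2 was the library kit, per the labels' protocols. Every column matched 1 sample by its title.

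The members and lists were chosen with earlier results of these data known. Genes passing filterByExpr (13990, with 99.976% of counts) were scaled by TMM and tested with edgeR 4.0.16 (robust quasi-likelihood, two-sided, group as the only term) in R 4.3.3. Benjamini-Hochberg adjustment ran over all genes tested. Log2 CPM used a prior count of 2, and the SE is the log2 fold change over the root of its F. Besides the members, the text names Cdkn1b, Mki67, Pcna, the 3 genes of smallest p and any called gene per partner list, and the 5 nearest profiles of Asf1b and Hira. Of the partners, 1 gene is not reported here and enters no list. The alternatives were other scalings (RLE, upper-quartile, total counts), no filter, at least 1 CPM in 3 libraries, DESeq2 1.42.0, limma-voom 3.58.1, the replicate number as a block, the Y-linked level (as a share of the highest library) as a term, and libraries left out. GENCODE M21 (GRCm38, the assembly of mm10) gave coordinates and exon lengths. The coordinates printed for Nap1l1 and Atrx are rounded in the last digit. The fit was tested on simulated data of 13852 genes with 200 changed. It called 132, of which 11 were false. Of genes changed 1.5-, 2- and 4-fold it called 19.4, 67.2 and 95.5%, so many changes of 1.5-fold would be missed. Libraries of 1 group differed by a chi-square of 6.49 to 188 per gene, beyond sampling noise, so each counted as a sample of its own. The lowest value was that of EV control 2 and 3, and every other pair lay at 55.5 or more. Such differences do not show that the libraries came from separate cultures.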

Additional observations from a re-analysis of the deposited data

How the results depend on the processing

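The 365 genes called over the whole table became 2321 with DESeq2, 2410 with the replicate block, 4761 when the Y-linked level was a covariate and 2334 without both libraries numbered 1, and 1 to 1827 when each library was left out. The count of members called, 1 at first, was 0 with total counts, 2 with the stricter filter (Asf1b and Chaf1a), 5 with DESeq2, 5 with the replicate block (Asf1b, Chaf1a, Chaf1b, Nap1l1 and Hira, beside 8.0% of all genes called lower), 6 with the Y-linked covariate, 4 without both libraries numbered 1, and 0 to 3 with each library left out. The cause was not tested. Same-numbered libraries deviated together with r = 0.67, 0.04 and 0.50 across genes, so they were not treated as pairs. Cdkn1b ranged from 2.48 to 2.97 with each library left out, and its call was lost in 5 of these 6 fits. The median of Asf1b, Chaf1a and Chaf1b ran from −0.84 to −0.54 over the same fits and that of Hira, Cabin1, Daxx and Atrx from −0.044 to 0.020. Signs near 0 turned: Daxx was at −0.0040 with upper-quartile scaling, −0.015 with no filter, −0.0073 with the Y-linked covariate and −0.049 to 0.041 with each library left out. Atrx was at 0.00030 without both libraries numbered 1 and −0.096 to 0.039 with each left out. Over those fits H3f3a ran from −0.17 to 0.068, Sp100 from −1.54 to 0.037 and Ubn2 from −0.077 to 0.15. No called gene reversed. Hjurp rests on 43 to 151 counts per library.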
